A study of Mus musculus with 8 samples.

Results

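The data were searched for 10 transcription factors that mark the mesenchyme of the lung, heart or liver: Tbx4, Tbx5, Tbx20, Gata4, Gata6, Foxf1, Hand2, Tcf21, Nkx2-5 and Lhx2. The members were chosen by gene symbol among the 22520 genes of the RNA sequencing (RNA-seq) table, and 9 of the 10 were present. Foxf1 was not analysed here. There were 8 libraries of mouse microvascular endothelial cells (ECs), labelled as mixtures of heart, liver and lung cells, and the C57BL/6 mice were at postnatal day 14. The 4 LRP1 knockout (LRP1 KO) libraries came from mice with floxed Lrp1 alleles and an inducible Cre recombinase fused to an estrogen receptor domain (CreER) under the Cdh5 promoter, which drives expression in endothelium. The 4 wild-type (WT) libraries came from littermates that, per the study, carried the same floxed alleles but no Cre. LRP1 is a large endocytic receptor for lipoproteins and proteases, and the comparison asked which genes differ when it is removed from ECs. ECs were captured on PECAM-1 antibody beads, and the study treats ECs of liver separately from those of heart and lung. In the mixed libraries, the organ from which a transcript came cannot be told apart. The sources used here do not say whether each library was a separate animal, so p-values measure only the spread between these libraries.

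Organs keep a record of their position in the transcription factors that their connective tissue cells express. T-box factors divide this map: Tbx4 and Tbx5 are sister genes of the limb and lung mesenchyme, with Tbx5 also acting in the heart, and Tbx20 acts in heart muscle, endocardium and valves. The zinc finger factors Gata4 and Gata6 act in heart, gut and liver development, and Gata4 also marks liver sinusoids and the quiescent state of stellate cells. Hand2 and Tcf21 are basic helix-loop-helix (bHLH) factors, the first of heart and sympathetic nerve development and the second of fibroblast precursors in lung, heart and kidney. The homeobox factor Nkx2-5 marks heart muscle, and Lhx2 acts in hepatic stellate cells, the fat-storing pericytes of the liver.

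Tbx20 and Hand2 were higher in LRP1 KO, and the promoters of both are shown because these were the 2 members called. The sequences are the 250 bases before the gene start in RefSeq (GRCm38.p6), written 5′ to 3′ on the strand of the gene. Hand2 lies at chr8:57320733-57320982 on the plus strand and Tbx20 at chr9:24774304-24774553 on the minus strand. Capitals mark every match, on either strand, of 6 short motifs: GATAA (GATA factors), AGGTGT (T-box factors), CANNTG (the E-box of bHLH factors), AAGTG (NK2 homeobox factors), TAAACA (forkhead factors) and TATAAA (the TATA box).
Hand2: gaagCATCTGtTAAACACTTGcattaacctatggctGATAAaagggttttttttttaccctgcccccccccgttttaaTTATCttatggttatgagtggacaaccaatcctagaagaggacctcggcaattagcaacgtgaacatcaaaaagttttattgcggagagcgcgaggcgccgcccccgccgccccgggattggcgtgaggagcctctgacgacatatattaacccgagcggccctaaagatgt
Tbx20: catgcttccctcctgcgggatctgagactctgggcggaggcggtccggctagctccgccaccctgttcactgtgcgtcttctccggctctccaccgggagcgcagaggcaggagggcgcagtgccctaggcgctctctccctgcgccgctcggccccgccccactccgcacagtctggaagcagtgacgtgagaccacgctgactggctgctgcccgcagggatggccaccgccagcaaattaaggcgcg
The Hand2 window held 2 matches of GATAA, at 214 and 172 bases before the start, and 2 E-boxes, at 246 and 235. It also held 1 forkhead match at 239 and 1 NK2 match at 235, and the NK2 match lies inside the second E-box and overlaps the end of the forkhead match. The Tbx20 window held none of the 6 motifs. Over all 32851 windows of this length, 22.6% held GATAA, 66.2% an E-box, 12.03% the forkhead motif, 40.7% the NK2 motif, 11.8% the T-box motif and 12.4% the TATA box. The windows held 15 CpG in Hand2 and 22 in Tbx20, against a median of 6 and quartiles of 2 and 16 over all windows. Their GC content was 49.2% and 68.8%, against a median of 52.4%. RefSeq windows were given for 6 of the 10 members. Among these, the Tcf21 window held 1 match (GATAA), the Tbx4 window 4 (3 E-boxes and a TATA box) and the Nkx2-5 window 1 (an E-box), and neither Lhx2 window held any. RefSeq starts can differ from the gene spans given below. The windows of Tbx4 (chr11:85896515-85896764) and Nkx2-5 (chr17:26841566-26841815) and 1 window of Lhx2 (chr2:38351058-38351307) lie inside those spans. Such matches describe the letters only. In the GENCODE M21 annotation, antisense or divergent transcripts start within 5 kb of, or overlap, Tbx5, Tbx20, Gata6, Hand2, Tcf21 and Lhx2, among them Hand2os1 at Hand2. The use of strand in the counting was not stated, so reads of the partners that overlap Gata6, Hand2, Tcf21 and Lhx2 cannot be told apart from those of the factors, while the partners of Tbx5 and Tbx20 do not overlap them.

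Values are FPKM, fragment counts scaled for transcript length and library size. All 8 columns shared the same highest value and nearly the same sum, as after quantile normalization, so the sequencing depth is unknown. Lrp1 averaged 120.1 ± 16.0 FPKM in WT but 4.79 ± 2.20 FPKM after knockout (SD, n = 4 each; limma adjusted p 8.89e-05), and all LRP1 KO libraries were below all WT libraries. LRP1 KO library 4 stood apart: over the tested genes with a limma adjusted p under 0.05, it was the LRP1 KO library closest to the WT mean in 75.2%. Because it was singled out by these same values, calls gained by leaving it out are no separate support for a difference. Markers of ECs, the labelled cell type, were present but low beside those of stroma. Pecam1 was 7.89 and Cdh5 9.59 FPKM on average in WT, against 498.5 FPKM for Col1a1 and 922 FPKM for Dcn, which mark fibroblasts, and 1177 FPKM for Msln, which marks mesothelium. Markers of the parenchyma were uneven. The WT means were 0.297 FPKM for Myh6 but 124 FPKM for Tnnt2 (both of heart muscle), 0.0287 FPKM for Alb but 888 FPKM for Trf (both of hepatocytes) and 0.149 FPKM for Sftpc (lung alveoli). Tnnt2 and Trf stood apart within their lists: 3 of 11 heart muscle, 2 of 11 hepatocyte and 2 of 10 lung epithelial markers had a WT mean of at least 1 FPKM. Of 12 stellate cell markers, 6 had a WT mean of at least 1 FPKM, while the vitamin A enzyme Lrat was at 0.0234 FPKM.

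In WT, the factors covered a wide range of levels. Gata6 stood highest at 78.9 ± 1.49 FPKM (SD, n = 4), above 91.1% of the tested genes. Tcf21 followed at 36.2 ± 3.03 FPKM and Gata4 at 13.8 ± 0.603 FPKM. The ranges of these 3 did not overlap each other or those of the genes below. Tbx20, Hand2 and Tbx4 came next with 5.39 ± 1.13, 5.32 ± 0.483 and 4.91 ± 0.519 FPKM, and their ranges overlapped, so no order can be given among them. Tbx5 was lower at 1.92 ± 0.191 FPKM. Lhx2 and Nkx2-5 were listed near 0, at 0.0448 ± 0.0208 and 0.0280 ± 0.0265 FPKM, with overlapping ranges. Lhx2 and Nkx2-5 were thus the only members below 1 FPKM in all 8 libraries.

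**Figure D1:**
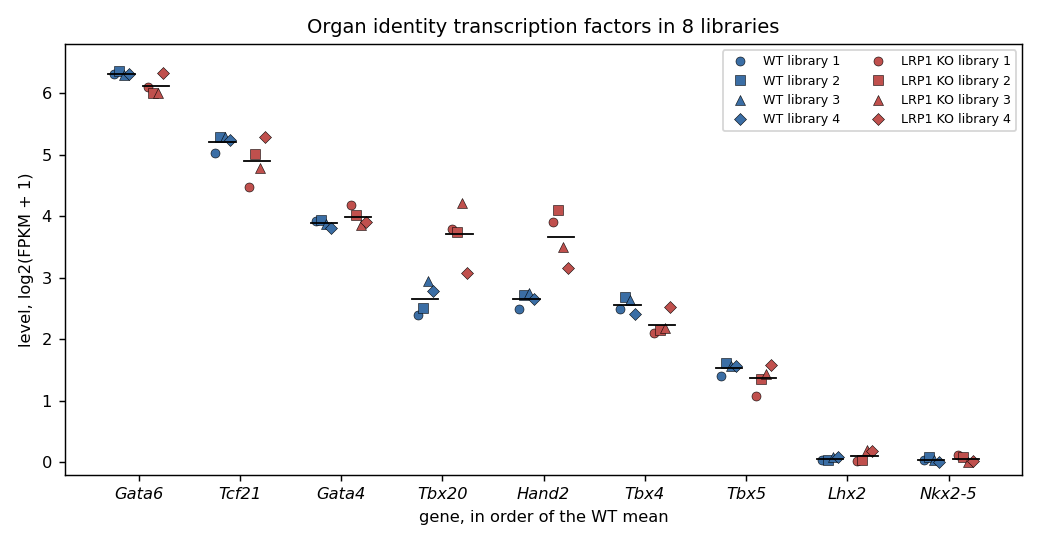
Level of the 9 factors as log2(FPKM + 1), with genes on the horizontal axis in order of the WT mean. Points are single libraries (blue WT, red LRP1 KO, marker shape the library number) and bars are group means. Gata6 was highest in both groups, only Tbx20 and Hand2 had groups that did not overlap, and Lhx2 and Nkx2-5 lay near 0.

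The order of the means was the same in LRP1 KO, but other neighbours overlapped. Gata6 (68.4 ± 7.65 FPKM) and Tcf21 (29.3 ± 7.20 FPKM) remained the highest and did not overlap each other. Gata4 (15.0 ± 1.62 FPKM), Tbx20 (12.6 ± 4.15 FPKM) and Hand2 (12.1 ± 3.70 FPKM) now shared a range, and Tbx4 (3.76 ± 0.660 FPKM) and Tbx5 (1.603 ± 0.366 FPKM) lay below them. The spread between libraries was larger in LRP1 KO for each of the 7 factors above 1 FPKM. The same count was not made over all tested genes, so it is not shown to be particular to these factors. The coefficient of variation of Gata6 was 1.89% in WT and 11.2% in LRP1 KO, and that of Tcf21 was 8.37% and 24.6%. Without LRP1 KO library 4 the spread was larger in LRP1 KO for 5 of the 7, with the exceptions of Tbx4 (10.6% in WT and 3.55%) and Tbx20 (just below the 20.9% of WT), and that of Gata6 was 3.91%.

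Gene positions below are in GRCm38 (GENCODE M21), where all 9 factors are protein-coding genes. Genes with at least 1 FPKM in at least 4 libraries were tested, 11389 in all, and 7 of the 9 factors were among them. Of the 7, 2 were higher and 0 were lower in LRP1 KO at a limma adjusted p under 0.05, where 6.27% of all tested genes were higher and 7.31% lower. At an unadjusted p under 0.05, 2 of the 7 were higher and 2 lower (Tbx4 and Gata6), where 15.5% of all tested genes were higher and 18.2% lower, 33.7% in all. The 2 called factors were also the only tested ones whose groups did not overlap, where 19.6% of all tested genes did not overlap and 8.84% were higher in LRP1 KO without overlap. The median change of the 7 was -0.17 on the log2(FPKM + 1) scale, against -0.01 over all tested genes. In bulk RNA, more cells of a type and more RNA per cell cannot be told apart.

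Tbx20 (ENSMUSG00000031965, chromosome 9, 24718138 to 24774303, minus strand) was at 4.25, 4.71, 6.74 and 5.87 FPKM in WT libraries 1 to 4, whereas the LRP1 KO values were 12.9, 12.4, 17.6 and 7.42 FPKM for libraries 1 to 4. All LRP1 KO values lay above all WT values, and library 4 was only a little above the highest WT value. In log2(FPKM + 1), Tbx20 rose by 1.05 (SE 0.22; limma adjusted p 0.0195), a ratio of means of 2.33. An exact permutation test (two-sided) returned p = 0.0286, the lowest value that 4 libraries against 4 allow. The limma call was lost without WT library 1 (adjusted p 0.0513), WT library 2 (0.0625), LRP1 KO library 1 (0.0549) or LRP1 KO library 2 (0.0567), its alternatives spanning 0.00123 to 0.0625, with estimates of 0.88 to 1.26.

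Hand2 (ENSMUSG00000038193, chromosome 8, 57320983 to 57324633, plus strand) was at 4.65, 5.61, 5.73 and 5.28 FPKM in WT libraries 1 to 4. The LRP1 KO libraries 1 to 4 stood at 13.9, 16.2, 10.3 and 7.91 FPKM. The groups did not overlap, and library 4 was again the lowest of LRP1 KO. Hand2 rose by 1.01 (SE 0.18, limma adjusted p 0.0112; exact two-sided permutation p = 0.0286), a ratio of means of 2.28. This call held in all 13 alternatives, with adjusted p from 0.000893 to 0.0353 and estimates of 0.86 to 1.18. Tbx20 and Hand2 both had a limma adjusted p under 0.05 and passed the limit of a 2-fold change on this scale. Of all tested genes, 1.12% met both conditions in the same direction. Both factors lay just past the 2-fold limit. The estimate was under 1 for Tbx20 without WT library 1 (0.96), WT library 2 (0.998) or LRP1 KO library 3 (0.88). For Hand2 it was under 1 without WT library 1 (0.96), LRP1 KO library 1 (0.93) or LRP1 KO library 2 (0.86).

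The remaining T-box factors lay on the other side of 0. Tbx4 (ENSMUSG00000000094, chromosome 11, 85886422 to 85916097, plus strand) was at 4.65, 5.44, 5.24 and 4.31 FPKM in WT, whereas the LRP1 KO values were 3.30, 3.47, 3.53 and 4.74 FPKM for libraries 1 to 4. The first 3 LRP1 KO libraries were below all WT libraries and library 4 was inside the WT range. The estimate of -0.32 (SE 0.11, 95% interval -0.56 to -0.07) did not pass (limma adjusted p 0.0775). Without LRP1 KO library 4, Tbx4 fell by 0.41 (SE 0.09, limma adjusted p 0.0110, its alternatives spanning 0.0110 to 0.193). Its sister gene Tbx5 (ENSMUSG00000018263, chromosome 5, 119832668 to 119885219) was at 1.64 to 2.08 FPKM in WT, whereas the LRP1 KO values were 1.12, 1.57, 1.72 and 2.001 FPKM for libraries 1 to 4. The groups overlapped, and the estimate was -0.17 (95% interval -0.43 to 0.08, limma adjusted p 0.313).

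Gata6 (ENSMUSG00000005836, chromosome 18, 11052064 to 11085635) was the steadiest factor in WT, at 78.5, 80.9, 77.3 and 78.7 FPKM. In LRP1 KO it was at 67.6, 63.0, 63.5 and 79.4 FPKM, so that libraries 1 to 3 lay below all WT libraries and library 4 among them. The estimate of -0.21 (SE 0.07, 95% interval -0.38 to -0.04) did not pass (limma adjusted p 0.0872). Without LRP1 KO library 4, Gata6 fell by 0.28 (SE 0.05, limma adjusted p 0.00509, its alternatives spanning 0.00509 to 0.216). Gata4 (ENSMUSG00000021944, chromosome 14, 63198922 to 63271692) was at 13.03 to 14.3 FPKM in WT, whereas the LRP1 KO values were 17.2, 15.2, 13.6 and 14.1 FPKM. LRP1 KO libraries 1 and 2 were above the WT range and libraries 3 and 4 inside it. Its estimate was 0.11 (95% interval -0.07 to 0.28, limma adjusted p 0.354), so a difference of up to 0.28 lies within the interval.

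Tcf21 (ENSMUSG00000045680, chromosome 10, 22817281 to 22820174) was at 31.7, 38.0, 38.1 and 37.0 FPKM in WT, whereas the LRP1 KO values were 21.2, 31.3, 26.5 and 38.2 FPKM for libraries 1 to 4. LRP1 KO library 4 held the highest value of all 8 libraries and the other 3 the lowest. The estimate was -0.32 (SE 0.15, 95% interval -0.67 to 0.02, limma adjusted p 0.173). Without LRP1 KO library 4, Tcf21 fell by 0.46 (limma adjusted p 0.0270, its alternatives spanning 0.0270 to 0.371). The same exclusion raised the number of factors with an adjusted p under 0.05 from 2 to 5, with Tbx4, Gata6 and Tcf21 lower and Tbx20 and Hand2 higher. It also raised the share called among all tested genes from 13.6% to 26.5% (12.6% higher and 13.9% lower). Library 4 lay nearest to WT for most of these factors, so calls gained without it are no separate support.

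**Figure D2:**
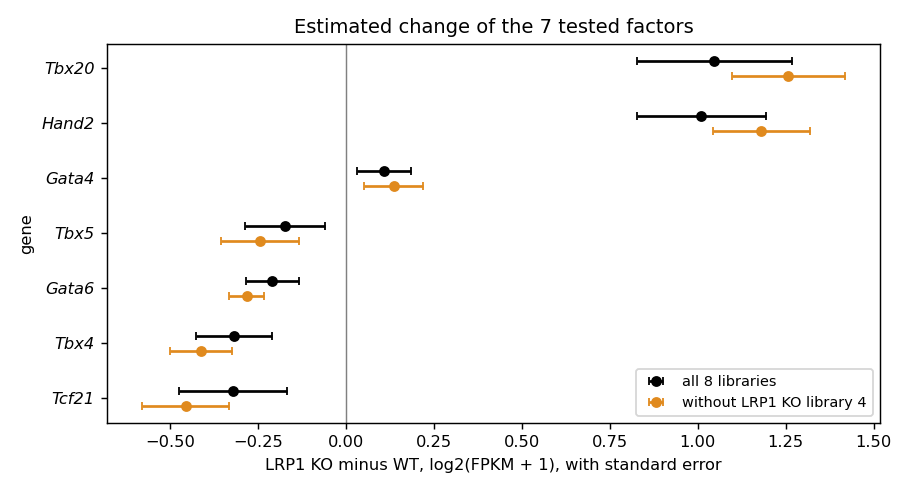
Estimated difference between LRP1 KO and WT for the 7 tested factors on the log2(FPKM + 1) scale, with the standard error, from all 8 libraries (black) and without LRP1 KO library 4 (orange). Tbx20 and Hand2 lie near 1, and the other 5 lie between -0.32 and 0.11 with all libraries.

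Lhx2 (ENSMUSG00000000247, chromosome 2, 38339281 to 38369733) had values of 0.0231 to 0.0630 FPKM in WT, whereas the LRP1 KO values were 0.0162 to 0.148 FPKM. Nkx2-5 (ENSMUSG00000015579, chromosome 17, 26838664 to 26845009) was listed at 0 to 0.0640 FPKM and 0.00583 to 0.0920 FPKM. Both were too low for the fit across genes, and their groups overlapped (exact permutation p = 0.400 for Lhx2 and 0.600 for Nkx2-5).

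The distance of each LRP1 KO library from the WT mean was compared across the 7 tested factors, because library 4 also stood apart in the whole table. It was the LRP1 KO library closest to WT in 6 of the 7 factors, and library 3 was closest for Gata4. Over all tested genes, library 4 was the closest in 50.3%. Library 1 lay farthest from WT for Tbx4, Tbx5, Gata4 and Tcf21, library 2 for Gata6 and Hand2, and library 3 for Tbx20. LRP1 KO library 4 also held the highest Lrp1 value of its group, 7.72 FPKM against 2.79 to 5.20 FPKM in the other 3.

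**Figure D3:**
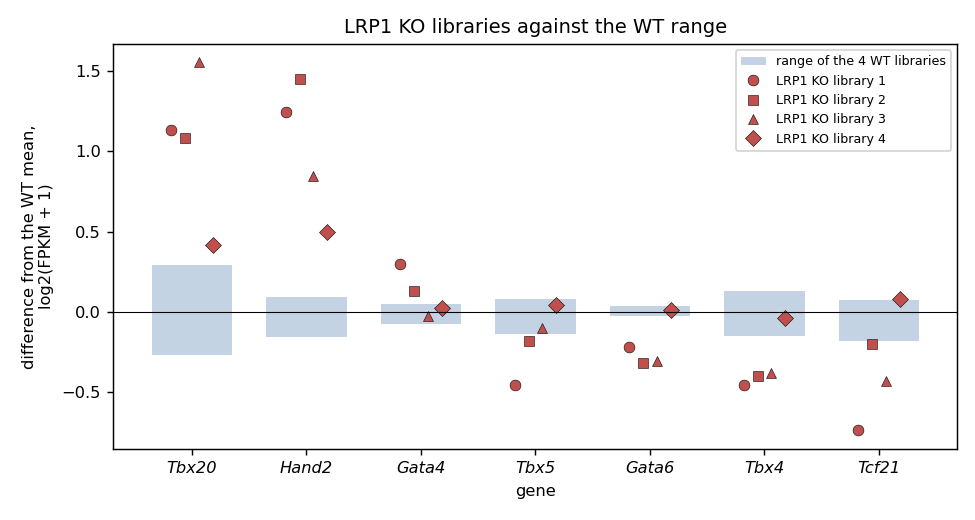
Deviation of each LRP1 KO library from the mean of WT in log2(FPKM + 1) for the 7 tested factors. Shaded boxes span the 4 WT libraries. LRP1 KO library 4 (diamonds) lies inside or next to the WT range for 5 factors and above it for Tbx20 (0.41) and Hand2 (0.50).

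Pairs of factors were compared within each library to ask whether related factors, or factors of different organs, changed by different amounts. Of 5 pairs, 3 had both genes above the filter, and each value is a difference of log2(FPKM + 1) between the genes, which is smaller in size than the log2 ratio of their FPKM. The difference of Tbx20, a heart factor, from Tbx4, a lung factor, was -0.11, -0.17, 0.31 and 0.37 in WT libraries 1 to 4 and 1.69, 1.58, 2.03 and 0.55 in LRP1 KO libraries 1 to 4. It was higher in all LRP1 KO libraries, by 1.36 on average (exact two-sided permutation p = 0.0286, the smallest possible, and 0.0857 adjusted over the 3 pairs). On this scale the change equals that of Tbx20 (1.05) less that of Tbx4 (-0.32), so it mostly restates the rise of Tbx20. For Gata4 against Gata6 it was -2.43 ± 0.05 in WT and -2.11 ± 0.22 in LRP1 KO (SD, n = 4 each; exact permutation p = 0.0571, adjusted 0.0857), with library 4 inside the WT range. For Tbx4 against Tbx5 it was 1.02 ± 0.12 and 0.87 ± 0.13 (exact permutation p = 0.171, adjusted 0.171), a change of -0.15 on this scale. A lone pair at the smallest p adjusts to 0.0857 over 3 pairs, so an adjusted p above 0.05 is no sign that Tbx20 against Tbx4 was alike in both groups. Without LRP1 KO library 4, the changes were 1.67 for Tbx20 against Tbx4 and 0.42 for Gata4 against Gata6. Both then had an exact permutation p of 0.0286 and an adjusted p of 0.0429, the adjusted p over all alternatives spanning 0.0429 to 0.188 for each. Library 4 was singled out by its nearness to WT in these values, so these passes are no separate support.

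The makeup of the T-box family was described from its 6 tested members other than Mga, as shares of their summed FPKM. Tbx20 made up 17.2%, 18.7%, 25.1% and 22.4% of the sum in WT libraries 1 to 4 and 41.3%, 40.4%, 49.1% and 27.1% in LRP1 KO libraries 1 to 4. It was the leading T-box gene in each LRP1 KO library, while Tbx2 led in each WT library with 25.8% to 33.1%. Tbx4 made up 16.4% to 21.6% in WT and 9.87% to 17.3% in LRP1 KO. A share falls when another part of the sum rises, so this is no separate sign of a decrease of Tbx4. The sum itself was 24.7 to 26.8 FPKM in WT and 27.3 to 35.8 FPKM in LRP1 KO.

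**Figure D4:**
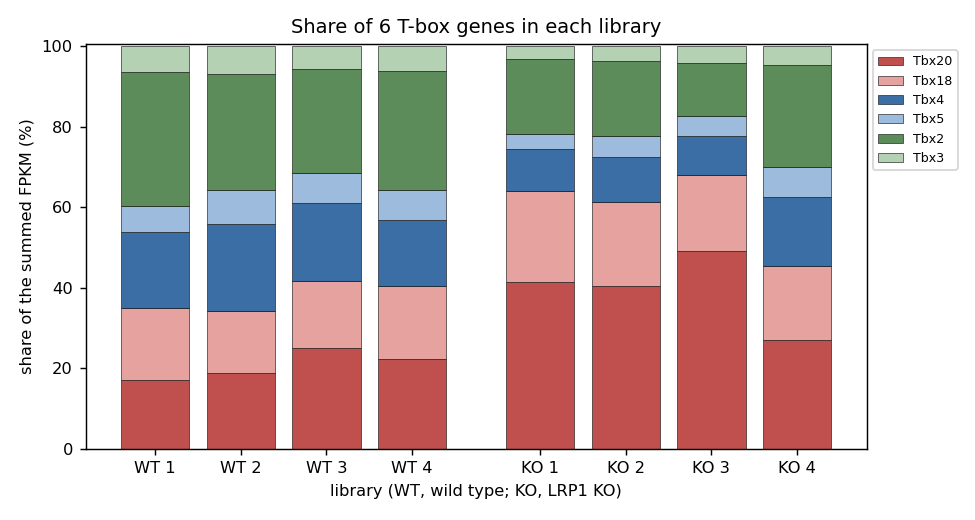
Share of each of 6 T-box genes in their summed FPKM, in percent, for the 8 libraries. Tbx20 took 17.2% to 25.1% in WT and 27.1% to 49.1% in LRP1 KO, and library 4 was the LRP1 KO library nearest to WT.

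Relatives of the factors were examined from fixed lists, whose counts stand beside 6.27% of all tested genes higher and 7.31% lower. The median estimates were -0.10 for other T-box, -0.02 for GATA and FOG, 0.01 for forkhead, -0.12 for bHLH, 0.28 for NK and LIM, -0.03 for other stromal and -0.19 for growth factor and structural genes, against -0.01 over all tested genes. Of 4 other tested T-box genes, 1 was higher and 0 lower. Tbx18, a factor of the epicardium and pericytes, rose by 0.44 (SE 0.10, limma adjusted p 0.0266), with means of 4.36 ± 0.322 FPKM in WT and 6.28 ± 0.911 FPKM (SD, n = 4 each). The limb and heart factors Tbx2 and Tbx3, which neighbour Tbx4 and Tbx5 in the genome, had estimates of -0.33 (SE 0.10, limma adjusted p 0.0559) and -0.23 (SE 0.09, limma adjusted p 0.105). Both had an unadjusted p under 0.05, and the groups of Tbx2 did not overlap, with 6.932 to 8.17 FPKM in WT and 4.735 to 6.925 FPKM in LRP1 KO.

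Of 5 tested GATA and FOG genes, 1 was higher and 0 lower. Gata2, a factor of endothelium and blood progenitors, was at 1.53 to 2.20 FPKM in WT, whereas the LRP1 KO values were 6.69, 4.29, 4.31 and 2.24 FPKM for libraries 1 to 4, and it rose by 0.86 (SE 0.23, limma adjusted p 0.0365). Library 4 was next to the WT range. Gata5 stood at 7.41 and 8.27 FPKM and the GATA partner Zfpm2 at 9.85 and 9.69 FPKM in WT and LRP1 KO, with limma adjusted p of 0.386 and 0.923.

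Among 6 tested forkhead, 6 tested bHLH and 4 tested NK or LIM genes, 0 were called in either direction by limma. After removal of LRP1 KO library 4, the lists held 1, 1 and 2 calls, where 26.5% of all tested genes were called. At an unadjusted p under 0.05, 0 of the forkhead genes, 3 of the bHLH genes (1 higher, 2 lower) and 1 of the NK or LIM genes (higher) differed, beside 33.7% of all tested genes. Foxf2, the gene most closely related to Foxf1, averaged 1.95 ± 0.0893 FPKM in WT against 2.16 ± 0.234 FPKM (SD, n = 4 each), with a limma adjusted p of 0.416.

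Other stromal factors were tested as 25 identifiers of 24 genes, since Tead1 has 2 identifiers, and 1 was higher and 2 lower. Leaving out LRP1 KO library 4 gave 7 calls, in a fit that called 26.5% of all tested genes. The list had 0 calls without WT library 2 or 3 or LRP1 KO library 1, 2 or 3, and 1 without WT library 4, with the replicate block or with no filter. Where the list had 0 calls, 512 to 919 genes were called in all. Where it had 1, 1008 to 1163 were called, against 1547 of the 11389 tested genes in the main fit. Osr1, a factor of lateral plate mesoderm and lung and heart mesenchyme, was at 75.2, 117, 87.2 and 73.4 FPKM in WT, whereas the LRP1 KO values were 32.1, 51.1, 40.0 and 74.5 FPKM for libraries 1 to 4. It fell by 0.87 (SE 0.24, limma adjusted p 0.0456), with library 4 inside the WT range. Gli2, a mediator of hedgehog signaling, fell by 0.45 (SE 0.10, limma adjusted p 0.0246) with no overlap between groups. Klf4 rose by 0.44 (SE 0.13, limma adjusted p 0.0474), from 22.6 ± 2.47 to 31.3 ± 5.66 FPKM (SD, n = 4 each).

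Growth factors and structural genes that act with these factors in organ mesenchyme made the last list, in which 3 of 15 tested genes were higher and 2 lower. When 1 library was left out, the list held 2 to 6 calls, where 512 to 3021 of the 11389 tested genes were called. Wnt2, a signal of lung mesenchyme, was at 4.83, 1.59, 1.70 and 4.97 FPKM in WT, whereas the LRP1 KO values were 12.3, 7.32, 9.02 and 5.84 FPKM for libraries 1 to 4. It rose by 1.24 (SE 0.32, limma adjusted p 0.0347). Its relative Wnt2b, which acts beside Wnt2 in lung mesenchyme, fell by 0.68 (SE 0.10, limma adjusted p 0.00432), from 2.99 ± 0.243 to 1.496 ± 0.258 FPKM (SD, n = 4 each). In both genes the groups did not overlap. Postn, a matrix protein of activated fibroblasts and heart valves, rose by 0.98 (SE 0.15, limma adjusted p 0.00663), from 85.3 ± 10.6 to 171 ± 38.3 FPKM (SD, n = 4 each). Pdgfra, a receptor of fibroblasts, fell by 0.96 (SE 0.25, limma adjusted p 0.0367), with LRP1 KO library 4 at 37.7 FPKM inside the WT range of 37.4 to 50.9 FPKM. The fifth called gene, Tgfb2, a growth factor of valve and fibroblast development, rose by 0.63 (SE 0.16, limma adjusted p 0.034). The lung signals Fgf10 and Bmp4 had estimates of -0.04 and -0.19 (limma adjusted p 0.864 and 0.305).

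**Figure D5:**
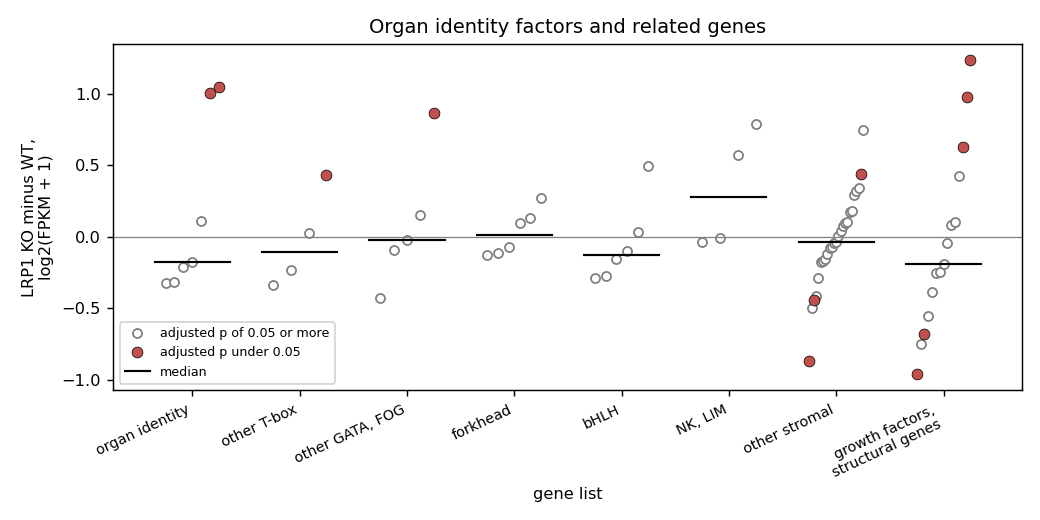
Estimated difference between LRP1 KO and WT on the log2(FPKM + 1) scale for the tested genes of 8 lists. Each circle is a gene, filled red at a limma adjusted p under 0.05, and bars are list medians. The organ identity list had 2 calls of 7, both near 1, and a median of -0.17.

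Of the 9 genes named from the lists, Postn and Wnt2b kept an adjusted p under 0.05 in all 13 alternatives. Wnt2 and Gli2 kept it in 7, Tbx18 and Gata2 in 5, Pdgfra in 4, and Osr1 and Klf4 in 3.

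Tbx20 and Hand2 were the factors whose levels spanned at least 1 on the log2(FPKM + 1) scale, and the genes most like them were found by the root mean square difference between centred profiles over the 8 libraries. This measure draws on the group difference as well as on single libraries. For Tbx20 they were Cd44 (difference 0.12), which encodes a hyaluronan receptor, Klhl13 (0.14) and Pdgfd (0.14), a platelet-derived growth factor. Cd44 was at 7.66 to 12.4 FPKM in WT, whereas the LRP1 KO values were 28.4, 21.5, 29.6 and 14.7 FPKM for libraries 1 to 4. For Hand2 they were Ahsg (0.15), which encodes the plasma protein fetuin-A, Smoc1 (0.15), a matrix protein, and Klhl6 (0.17). Smoc1 was at 1.72 to 2.35 FPKM in WT, whereas the LRP1 KO values were 6.00, 5.56, 4.25 and 2.34 FPKM for libraries 1 to 4. Since the measure includes the group difference, higher values in LRP1 KO and an adjusted p under 0.05 in all 6 genes follow closely from their choice and are no separate result. For Klhl13 and Smoc1 the groups overlapped through library 4. Pdgfd and Klhl6 kept the call in all 13 alternatives and Cd44 in 12, whereas Ahsg and Smoc1 kept it in 5 and Klhl13 in 4.

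Marker lists of other cell types were summed in the same libraries, and their counts of called genes stand beside 6.27% of all tested genes higher and 7.31% lower. Of 18 tested endothelial markers, 18 had an estimate above 0 and 1 passed, with a summed level of 200 to 224 FPKM in WT, 445 to 737 FPKM in LRP1 KO libraries 1 to 3 and 203 FPKM in library 4. Mural markers summed to 551 to 716 FPKM in WT and 914 to 1519 FPKM in LRP1 KO, and 3 of 6 tested genes were called higher. Macrophage markers summed to 42.7 to 86.2 FPKM in WT and 223 to 563 FPKM in LRP1 KO, with 9 of 10 tested genes called higher. Of the 18 endothelial genes, 12 had an unadjusted p under 0.05, all higher, beside 15.5% of all tested genes in that direction. When LRP1 KO library 4 was left out, 16 of them were called, beside 26.5% of all tested genes, whereas leaving out any other library gave 0. For the same exclusion the fibroblast list had 7 calls, the mesothelial list 5 and the mural list 5, whereas leaving out any other library gave 1 or 2, 1 and 3. Those other exclusions called 512 to 1008 of the 11389 tested genes in all. The medians were 0.81 for endothelial, 0.89 for mural, 2.10 for macrophage, -0.28 for fibroblast and -0.23 for mesothelial markers. Fibroblast markers summed to 3111 to 4303 FPKM in WT and 2997 to 4062 FPKM in LRP1 KO, with 1 of 13 called higher and 3 lower. Mesothelial markers summed to 2414 to 2760 FPKM in WT and 2059 to 2349 FPKM in LRP1 KO, and 2 of 8 were called lower. Lung fibroblast markers summed to 114 to 179 FPKM and 104 to 139 FPKM, with 1 of 8 called in each direction, and stellate markers to 335 to 370 FPKM and 346 to 382 FPKM, with 1 of 6 called higher. When 1 library was left out, the lung fibroblast list held 0 to 3 calls and the stellate list 1 to 2. Over all tested genes, those fits called 512 to 3021. None of the genes on these 7 lists was at 0 in all libraries, but the Kupffer cell markers, of liver macrophages, Clec4f and Timd4 had means under 0.01 FPKM in both groups. LRP1 KO library 4 was the one nearest to the WT range for the endothelial, mural, mesothelial and hepatocyte marker sums. The same held for Tbx20 and Hand2, and for 75.2% of all called genes it was closest to the WT mean. Nearness to WT is thus not particular to these lists or factors. The macrophage sum of library 4, 504.1 FPKM, was exceeded only by library 2. The part of these cell types in the values of Tbx20, Hand2 and the other factors was not tested.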

How the data were processed

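In all, 8 libraries were analysed, 4 WT and 4 LRP1 KO, grouped by their labels. The deposited values are FPKM per gene, a unit inferred from the values and from the submitters' processing notes, which name mm10, TopHat2 and Cufflinks, whereas the study's methods name STAR and featureCounts. The scaling between libraries was not given in the sources used here, and the columns looked quantile normalized. Library sums were 503571 to 504112, so depth is unknown and no counting interval can be given. Genes with at least 1 FPKM in at least 4 of the 8 libraries (11389 of 22520) were tested as log2(FPKM + 1) with limma 3.58.1 in R 4.3.3, with a variance trend and Benjamini-Hochberg adjustment. For low genes, the added 1 makes a log2 difference smaller than that of the FPKM values. Single values were compared with exact two-sided permutation tests (70 arrangements, smallest p 0.0286). The scripts were tested on simulated data.

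The members and lists were chosen with earlier results of these data known. Genes were named by rule: all members and Lrp1, the 3 genes with the nearest profile to each member that spanned at least 1 on the log2 scale, and up to 4 called genes per related list by size of change. Other genes, such as Tgfb2, Foxf2 and marker genes, were named after their values were seen. The alternatives were a pseudocount of 0.1, no filter, median-ratio scaling, a replicate block, no variance trend and leaving out each library. Promoters came from RefSeq (GRCm38.p6) and gene positions from GENCODE M21 (GRCm38), in which 21740 identifiers matched.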

Additional observations from a re-analysis of the deposited data

Results flagged for a closer look

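Among 50 sets of 4 libraries examined with Dixon's test, 1 held a library far from the others. Tbx4 in LRP1 KO library 4 was at 4.74 FPKM, with the next value at 3.53 FPKM. The gap was 0.837 of the range of the group, above the 95% critical value for 4 libraries. Chance marks about 1 in 20 such sets.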

How the results depend on the processing

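No estimate for the 7 tested factors or the 3 ratios changed its direction under any of the 13 alternatives for the factors or those run for the ratios. The number of called genes, 1547 of 11389, was 1013 with the replicate block and 512 to 3021 when 1 library was left out, with 3021 without LRP1 KO library 4. With at least a 2-fold change, 184 genes became 133 to 339. The 2 called factors became 1 to 5, with 1 after removing WT library 1 or 2 or LRP1 KO library 1 or 2, and 5 after removing LRP1 KO library 4. Over these exclusions, the estimates on the log2(FPKM + 1) scale were 0.88 to 1.26 for Tbx20, 0.86 to 1.18 for Hand2, -0.41 to -0.27 for Tbx4, -0.28 to -0.17 for Gata6, -0.46 to -0.18 for Tcf21, -0.24 to -0.08 for Tbx5 and 0.04 to 0.15 for Gata4. The differences of log2(FPKM + 1) between paired factors changed by -0.20 to -0.10 (Tbx4 to Tbx5), 0.25 to 0.42 (Gata4 to Gata6) and 1.18 to 1.67 (Tbx20 to Tbx4). Without LRP1 KO library 4, the last 2 passed, at 0.42 and 1.67 (exact permutation, adjusted p 0.0429 each), and no other alternative gave a ratio an adjusted p under 0.05. That library was singled out by its nearness to WT in these values, so both passes are no separate support. In 4 pairs the smallest p is 0.125, so the paired test of a ratio could not pass. Fewer libraries enter these fits, and the cause of the larger counts without LRP1 KO library 4 was not tested.

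Deviations of libraries with the same number had an r of 0.158, 0.141 and 0.34 for numbers 1 to 3 but -0.312 for number 4, and 5 of 8 libraries correlated best with their own number. Since number 4 did not deviate together and the labels give no shared source, the numbers were not taken as a pairing. With the replicate block, the adjusted p was 0.0317 for Tbx20 and 0.0267 for Hand2, and no other factor was called. Without the filter, Nkx2-5 and Lhx2 had limma adjusted p of 0.666 and 0.524. Median-ratio factors were 0.995 to 1.02. Depth is unknown, so the precision of the low values of Nkx2-5 and Lhx2 cannot be given.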

Other observations

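Within the GATA family, Gata6 made up 74.4% to 77.2% of the summed FPKM of 5 genes in WT and 66.5% to 75.1% in LRP1 KO. Gata2 reached at most 2.08% in WT and spanned 2.12% to 6.59% in LRP1 KO. Within 4 mesenchymal bHLH genes, Hand2 took 8.12% to 9.23% in WT and 29.1%, 25.2%, 19.8% and 12.3% in LRP1 KO libraries 1 to 4, while Tcf21 took 55.4% to 61.4% and 44.4% to 59.2%. As parts of a sum, the shares of Gata6 and Tcf21 fall when Gata2 or Hand2 rises, so they are no separate sign of a decrease. The sum of hepatocyte markers, 818 to 967 FPKM in WT and 315 to 599 FPKM in LRP1 KO, was almost entirely Trf, which encodes transferrin, with a mean of 422 FPKM in LRP1 KO. Apoc3 was at 0 in all libraries. The sum of heart muscle markers, 99.6 to 155 FPKM in WT and 87.4 to 119 FPKM in LRP1 KO, was mostly Tnnt2, with a mean of 96.1 FPKM in LRP1 KO. Lung epithelial markers summed to 4.23 to 7.65 FPKM and 3.71 to 7.05 FPKM. Of 2 tested genes in each list, 1 hepatocyte and 1 lung epithelial marker were called lower, beside 7.31% of all tested genes. Of 2 tested heart muscle markers, 0 were called. When 1 library was left out, the hepatocyte and lung epithelial counts stayed at 1, and the heart muscle count was 0 or 1.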
